A study of Mus musculus with 4 samples.

Results

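The genes described here encode the motor proteins of the cytoskeleton: myosins, kinesins and dyneins. This family was chosen with earlier results of these data known, and its members were then taken by symbol alone. They are every listed gene whose symbol begins with Myo or Myh and a number, or with Kif, Dnah, Dnahc or Dync. That gave 59 of the 5614 genes listed in either of 2 tables of transposon reads, with 50 in library 1 and 37 in library 2. They comprise 17 unconventional myosins, 4 class II myosins, 21 kinesins, 12 axonemal dyneins and 5 cytoplasmic dynein subunits. The pattern also takes in Kifap3, an accessory subunit of a kinesin, and 3 smaller dynein chains, which are not motors by themselves.

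DNA was taken from neural stem cell-like cells of the 129Sv background, which carry a single chromosome set and were made from mouse haploid embryonic stem cells. Embryoid bodies were plated in N2B27 medium with FGF2, EGF, the receptor inhibitors LDN193189 and SB431542, and a ROCK inhibitor, given as Y-27632, Thiazovivin or both. The cells received a piggyBac plasmid built to trap genes along with its transposase, and G418 kept cells in which the trap had landed in a gene. Splinkerette PCR, a nested PCR from an adapter into the transposon end, then copied the junctions for sequencing. The 4 samples form 2 libraries of 2 samples each, and each library is a single table that pools its samples. The labels name no treatment that separates the libraries and no untransfected control, so a difference between libraries compares these pools and has no replicate check. No RNA was measured, so the values do not show whether a gene is expressed or which cell type is present.

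Motor proteins turn ATP into steps along a filament. Myosins walk on actin, most kinesins walk towards the plus end of microtubules, and dyneins walk towards the minus end. In neural progenitors these motors carry organelles and receptors, move the nucleus, build the mitotic spindle and serve the primary cilium. In a haploid cell an insertion that breaks a motor gene leaves no intact copy, so reads in a gene mark mutants that the pool may contain. Nonredundant and redundant reads are 2 whole-number counts that the authors deposited per gene, and the first is never larger than the second. A gene is listed when it has at least 1 nonredundant read. Reads are PCR products, and the sources used here do not define nonredundant. Neither count is therefore taken as the number of insertions or cells. All 95% intervals below are exact Clopper-Pearson intervals that cover counting error only. The tables hold no position of any insertion, so no junction sequence is shown.

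Library 1 held 55442 nonredundant and 877870 redundant reads over 4184 genes, and library 2 held 48750 and 1300140 over 3168. Motor genes took 1438 nonredundant reads in library 1, or 2.59% of the library (95% interval 2.46 to 2.73), and 367 in library 2, or 0.753% (0.678 to 0.834). A few genes set these sums. The 6 motor genes with 10 or more reads in library 1 held 91.9% of the motor reads there, and the 4 in library 2 held 82.8%. The same measure over all listed genes is not given here, so this is not read as a trait of motor genes. Without Myo6, the motor shares were 0.774% (0.702 to 0.851) in library 1 and 0.720% (0.647 to 0.799) in library 2, with overlapping intervals. When the 10 genes with most reads of each library were left out of motor reads and totals alike, the order turned. The motor shares were then 0.906% (0.822 to 0.996) in library 1 and 1.30% (1.18 to 1.44) in library 2. In library 1 this took Myo6 alone from the motor reads, leaving 421 of 46462. In library 2 it took no motor gene, so the motor reads stayed at 367 while the total fell from 48750 to 28135. In redundant reads the motor shares of libraries 1 and 2 were 9.08% and 0.151%.

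**Figure D1:**
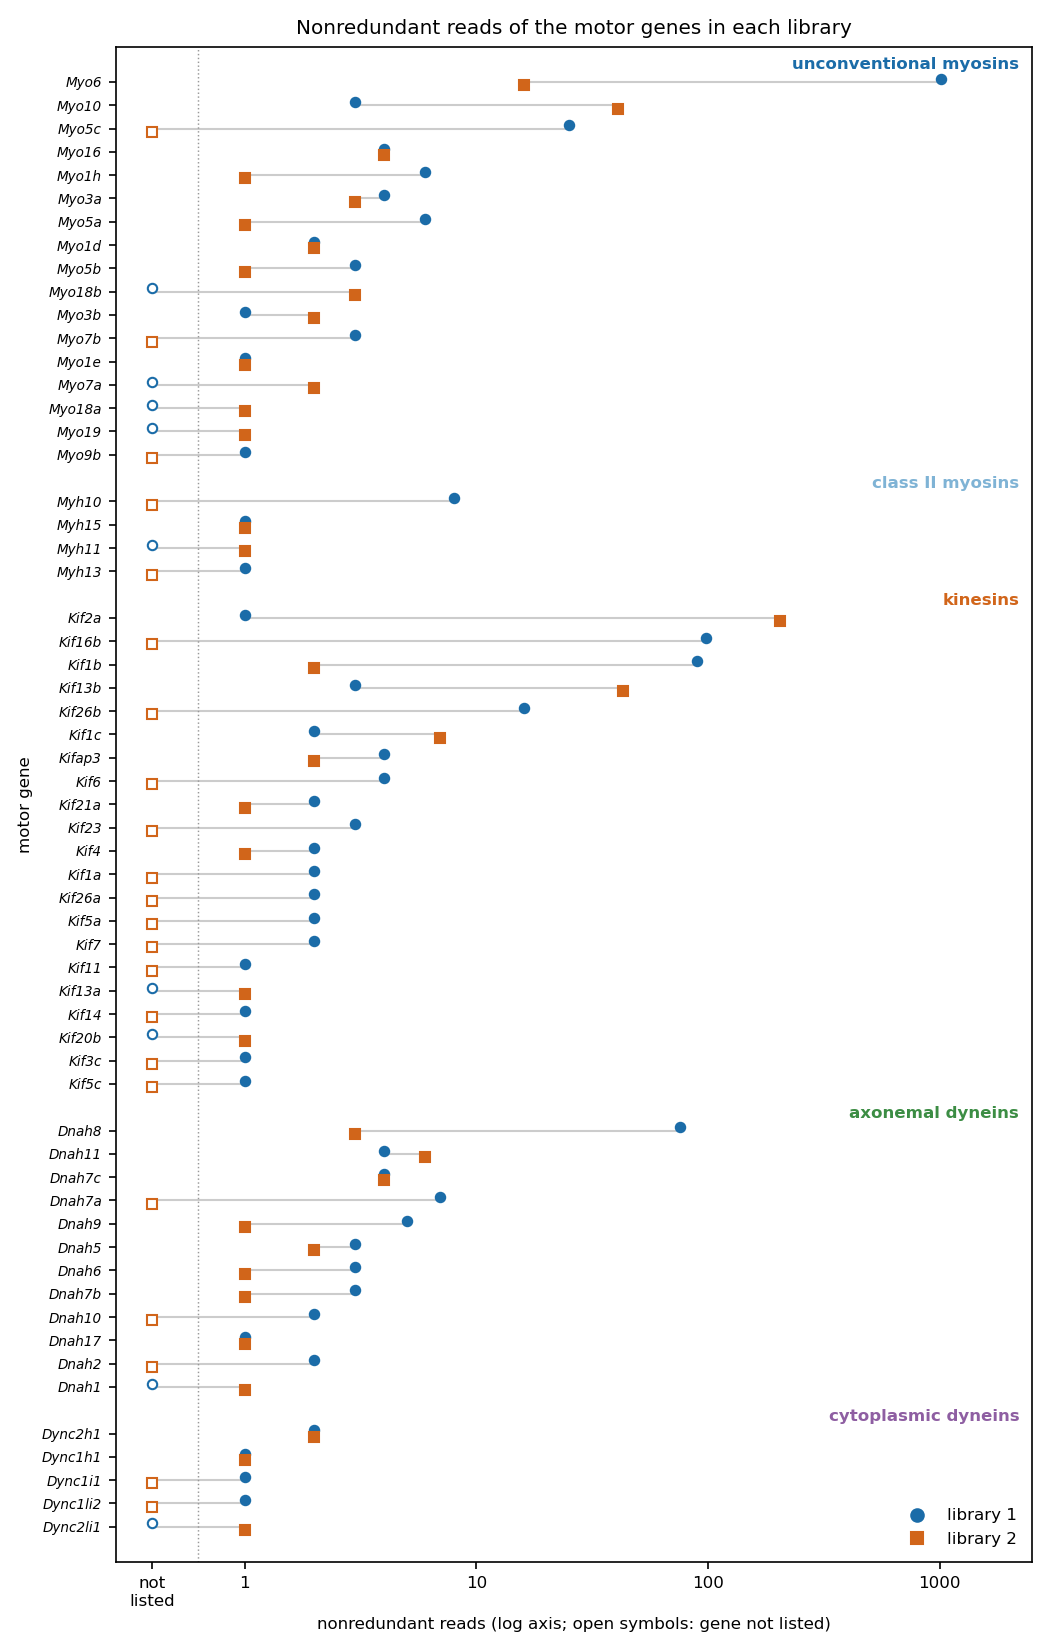
Nonredundant reads of each of the 59 motor genes in library 1 (blue circles) and library 2 (orange squares) on a log axis, grouped by class, with open symbols on the left for a gene that is not listed. Myo6 stands apart in library 1 with 1017 reads and Kif2a in library 2 with 204, while 38 genes have at most 3 reads in each library. In libraries 1 and 2, 53.7% and 59.7% of all listed genes have exactly 1 read. Low counts are thus not read as a trait of motor genes.

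Myo6 led the motor genes of library 1. It lies on chromosome 9 and encodes myosin VI, which unlike other known myosins moves towards the minus end of actin filaments and serves endocytosis and the sensory hair cells of the ear. It had 1017 nonredundant reads in library 1, or 1.83% of the library (95% interval 1.72 to 1.95), and 16 in library 2, or 0.0328% (0.0188 to 0.0533). The intervals do not overlap, and 98.5% of the gene's summed reads came from library 1. By redundant reads Myo6 ranked 1 of all genes in library 1, with 77367 reads or 8.81% of that library (8.75 to 8.87), and had 18 in library 2, or 0.00138% (0.000821 to 0.00219). Redundant reads may hold PCR copies, which are not independent draws, so their intervals may be too narrow. By nonredundant reads Myo6 ranked 3 in library 1 and 224 in library 2.

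The relation between the counts also set Myo6 apart. In library 1 it had 76.1 redundant reads per nonredundant read, and none of the other genes with 10 or more nonredundant reads, 499 genes in all, had a higher ratio. The median ratio of those genes was 4.53 (quartiles 1.86 and 9.01). In library 2 the ratio of Myo6 was 1.13, and 274 of 294 such genes had a higher one (median 4.55, quartiles 2.42 and 8.33). The same gene was thus at the top of the range in the first pool and near the bottom in the second. Both genes next to Myo6 in the RefSeq order, Senp6 and Impg1, were not listed in library 1 and had 1 nonredundant read each in library 2.

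Among the unconventional myosins, which carry cargo or tether membranes rather than form thick filaments, Myo10 and Myo5c were the other genes with 10 or more reads. Myo10 encodes a motor that gathers at the tips of filopodia. It had 3 nonredundant reads in library 1 (0.00541%, 95% interval 0.00112 to 0.0158) and 41 in library 2 (0.0841%, 0.0604 to 0.114), the opposite order to Myo6. Myo5c, a class V myosin of secretory vesicles, had 25 reads in library 1 (0.0451%, 0.0292 to 0.0666) and no entry in library 2. Its relatives were close to the floor of the tables: Myo5a, which carries melanosomes and neuronal organelles, had 6 and 1 reads in libraries 1 and 2, and Myo5b, a motor of recycling endosomes, had 3 and 1.

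The remaining unconventional myosins had 6 reads or fewer in each library. Myo16, which binds protein phosphatase 1 in neurons, had 4 nonredundant reads in each library, and Myo1d, a membrane-binding class I myosin, had 2 in each. Myo3a, a myosin with a kinase domain found in hair cell stereocilia, had 4 and 3, and its relative Myo3b had 1 and 2. Myo1h had 6 nonredundant but 229 redundant reads in library 1, a ratio of 38.2, and 1 of each in library 2. Myo7a, the Usher syndrome myosin, had 2 reads in library 2 alone, and Myo7b, a myosin of intestinal microvilli, had 3 in library 1 alone. Of 25 unconventional myosins in RefSeq 13 were listed in library 1 (52.0%), beside 19.9% of all genes and 50.4% of genes in the same length classes, which are 10 classes of equal size by gene length. In library 2 there were 14 (56.0%, 95% interval 34.9 to 75.6), beside 15.0% and 39.3%, and in both 10 (40.0%, 21.1 to 61.3), beside 8.25% and 28.4%. Each of these intervals holds the share of the same length classes. Of the 10, 5 had more nonredundant reads in library 1, 2 had more in library 2 and 3 had equal counts.

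Class II myosins are the filament-forming myosins of muscle and of the contractile ring. In either library 4 of 14 were listed (28.6%, interval 8.39 to 58.1), beside 26.6% of all genes and 41.1% in the same length classes. The interval holds both shares, so the count is not read as a result about the class. Myh10, non-muscle myosin IIB, had 8 reads in library 1 and no entry in library 2. The smooth muscle gene Myh11 had 1 read in library 2, Myh13 1 read in library 1, and Myh15 1 read in each. Of 10 sarcomeric genes in RefSeq 2 were listed in either library (20.0%, beside 32.2% of all genes in the same length classes), and of 4 non-muscle and smooth muscle genes 2 were (50.0%, beside 63.1%). Myh9, which encodes non-muscle myosin IIA, was not listed. Muscle myosin genes are close copies of each other, and how the authors treated reads that match several copies is not given in the sources used here, so their counts are uncertain.

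The kinesins with most reads were different genes in each library. Kif2a, on chromosome 13, encodes a kinesin that takes microtubule ends apart instead of walking, at spindle poles and in growing neurites. It had 1 nonredundant read in library 1 (0.00180%, 95% interval 0.0000457 to 0.0100) and 204 in library 2 (0.418%, 0.363 to 0.480), where it ranked 48 of all genes. It held 55.6% of the motor reads of library 2, whose motor share without it was 0.336% (0.286 to 0.391). Kif13b, a motor that carries membrane proteins and phosphoinositide vesicles, followed the same order with 3 reads in library 1 and 43 in library 2 (0.0882%, 0.0638 to 0.119). Kif1c, a motor of the Golgi and of mRNA transport, had 2 and 7.

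The opposite order held for Kif1b and Kif16b. Kif1b, which carries mitochondria and synaptic vesicle precursors, had 90 nonredundant reads in library 1 (0.162%, 95% interval 0.131 to 0.199) and 2 in library 2. Kif16b, a motor of early endosomes, had 98 in library 1 (0.177%, 0.144 to 0.215) and no entry in library 2. Kif26b, an atypical kinesin that acts in kidney development, had 16 in library 1 (0.0289%, 0.0165 to 0.0469) and no entry in library 2. Each of these 3 genes thus had its reads almost wholly in the first pool. Relatives of the leading kinesins had few reads: Kif1a had 2 in library 1, Kif26a 2 in library 1 and Kif13a 1 in library 2. Kifap3, the subunit that links the Kif3 motor to its cargo, had 4 and 2, and Kif21a, which slows microtubule growth, had 2 and 1. Kif6, with 4 reads, Kif5a and Kif7, with 2 each, and Kif3c and Kif5c, with 1 each, were in library 1 alone.

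Kinesins of the spindle and of cytokinesis, apart from Kif2a, had no more than 3 reads. Kif23, a part of the central spindle, had 3 reads in library 1, and the chromosome-bound kinesin Kif4 had 2 and 1. Kif11, which pushes spindle poles apart, and Kif14, a cytokinesis motor, had 1 read each in library 1, and Kif20b had 1 in library 2. Of 15 such kinesins in RefSeq, Kif2a included, 6 were listed in either library (40.0%), beside 33.4% of all genes in the same length classes. Of 21 kinesins grouped with the carriers of organelles and vesicles 12 were listed (57.1%, beside 56.5%), and of 7 with ciliary or signalling roles 3 were (42.9%, beside 42.7%). Over all 44 kinesins 19 were listed in library 1 (43.2%, 95% interval 28.3 to 59.0, beside 34.7% in their length classes) and 9 in library 2 (20.5%, 9.80 to 35.3, beside 26.7%). Of these 7 were in both libraries (15.9%, beside 15.8%), which is near the background, with 12 in library 1 alone and 2 in library 2 alone. Of the kinesins of library 1, 36.8% were also in library 2, beside 41.5% of all listed genes of library 1. Of those of library 2, 77.8% were also in library 1, beside 54.9%. The difference of these counts was not tested, and library 2 listed fewer genes as a whole.

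Axonemal dyneins drive the beat of cilia and flagella, and most of their heavy chains were listed with few reads. Dnah8, an outer arm heavy chain of sperm flagella on chromosome 17, was the exception with 76 nonredundant reads in library 1 (0.137%, 95% interval 0.108 to 0.172) and 3 in library 2 (0.00615%, 0.00127 to 0.0180). Dnah11, an outer arm heavy chain, had 4 and 6 reads, its outer arm partner Dnah5 3 and 2, and Dnah9 5 and 1. The inner arm genes Dnah7a, Dnah7b and Dnah7c had 7, 3 and 4 reads in library 1, and library 2 had 1 for Dnah7b, 4 for Dnah7c and no entry for Dnah7a. These 3 genes are near copies on chromosome 1, and reads may have been split among them. Of 15 axonemal dyneins 11 were listed in library 1 (73.3%, beside 65.9% in their length classes), 9 in library 2 (60.0%, beside 52.5%) and 8 in both (53.3%, beside 41.7%). A single read was found for 1 of the 11 in library 1 (9.09%, 95% interval 0.230 to 41.3), beside 53.7% of all listed genes and 34.3% of those in the same length classes. In library 2 it was found for 5 of the 9 (55.6%, 21.2 to 86.3), beside 59.7% and 44.4%. Both intervals hold the share of the same length classes.

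Cytoplasmic dynein moves cargo towards the cell centre and positions nuclei and spindles, and the reads of its subunits came to 5 and 4 in libraries 1 and 2. Dync1h1, the heavy chain of the main cytoplasmic dynein, had 1 read in each library, and Dync2h1, the heavy chain that brings cargo back from the ciliary tip, had 2 in each. The intermediate chain gene Dync1i1 and the light intermediate chain gene Dync1li2 had 1 read each in library 1, and Dync2li1 had 1 in library 2. None of the 7 cytoplasmic dynein genes in RefSeq reached 10 reads in either library. In the same length classes 5.48% of all genes did in library 1 and 3.04% in library 2. With 7 genes this is near the background and is not read as a result about the class.

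**Figure D2:**
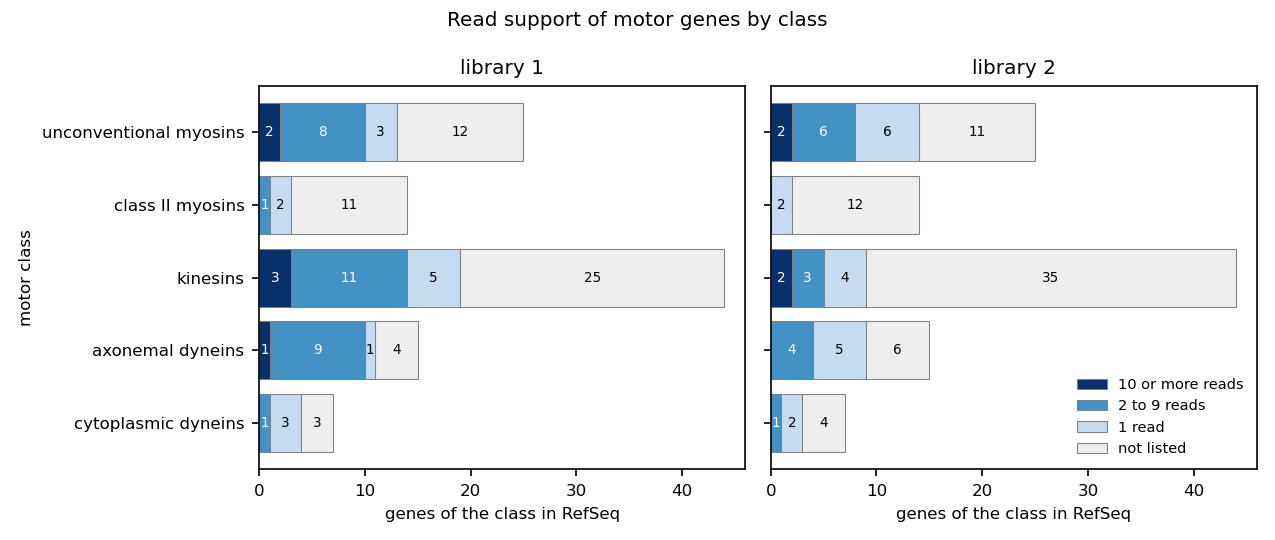
Number of genes of each motor class in RefSeq, split by their nonredundant reads in library 1 (left) and library 2 (right) into 10 or more, 2 to 9, exactly 1, and not listed. Kinesins show 25 unlisted genes of 44 in library 1 and 35 in library 2, while unconventional myosins show 12 and 11 of 25, and listed shares in the same length classes are 34.7% and 26.7% beside kinesins and 50.4% and 39.3% beside unconventional myosins.

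Most listed motor genes had fewer than 10 reads, as did most of all listed genes. Exactly 1 nonredundant read was found for 14 of 50 in library 1 (28.0%), beside 53.7% of all listed genes and 42.7% in the same length classes. In library 2 it was found for 19 of 37 (51.4%), beside 59.7% and 49.1%. In library 1, 36 of 50 (72.0%, 95% interval 57.5 to 83.8) had 2 or more reads, beside 46.3% of all listed genes and 57.3% of listed genes in the same length classes. In library 2, 18 of 37 did (48.6%, 31.9 to 65.6), beside 40.3% and 50.9%. At 10 or more reads there were 6 of 50 in library 1 (12.0%, beside 11.9% of all listed genes and 14.7% in the same length classes) and 4 of 37 in library 2 (10.8%, beside 9.28% and 11.2%). The share at 2 or more reads in library 1 lay above that of the same length classes, and its complement, exactly 1 read, lay below. The interval at 2 or more reads starts at 57.5%, just above 57.3%, and the difference was not tested. In library 2 the order was the opposite, with 48.6% beside 50.9%. The other shares lie near the background, and none of these shares is read as a result about motor genes. Intervals of shares of genes treat genes as independent draws.

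Listing followed gene length. RefSeq holds 105 genes of the same symbol pattern with a curated mRNA, and all 59 listed genes are among them. All 21031 genes with a curated mRNA were divided by length into 10 classes of equal size. Motor genes are long: 37 of the 105 are in the longest class and 75 in the longest 3. In library 1, 50 of the 105 were listed (47.6%, 95% interval 37.8 to 57.6), beside 19.9% of all genes but 42.7% when each motor gene is given the share of its own length class. In library 2, 37 were (35.2%, 26.2 to 45.2), beside 15.0% and 33.2%. In either library, 59 were (56.2%, 46.2 to 65.9), beside 26.6% and 53.5%. Set beside genes of like length, the listed shares of motor genes are near the background.

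The classes followed gene length in part. They stood in the order of the shares in their length classes, except that cytoplasmic dyneins, with 7 genes, stood above unconventional myosins. Axonemal dyneins, all 15 of which are in the longest 3 length classes, had 12 listed in either library (80.0%, 95% interval 51.9 to 95.7), beside 76.7% in their length classes. Unconventional myosins had 17 of 25 (68.0%, 46.5 to 85.1, beside 61.4%), kinesins 21 of 44 (47.7%, 32.5 to 63.3, beside 45.6%) and cytoplasmic dyneins 5 of 7 (71.4%, 29.0 to 96.3, beside 50.6%). Class II myosins had 4 of 14 (28.6%, 8.39 to 58.1, beside 41.1%). Every one of these intervals holds the share of the matching length classes. In the longest class 32 of 37 motor genes were listed in either library (86.5%, 71.2 to 95.5), beside 81.6% of all genes in that class, which is near the background.

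**Figure D3:**
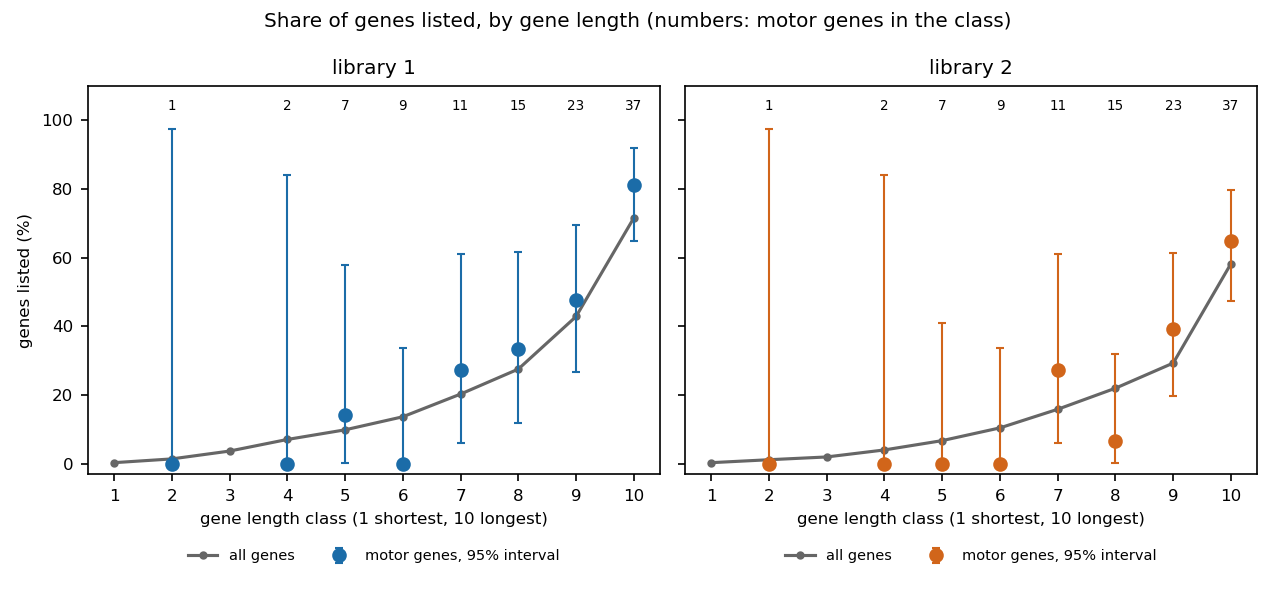
Percentage of genes listed in each of 10 gene length classes, for all genes (grey line) and for motor genes (points with exact 95% intervals), in library 1 (left) and library 2 (right); the number of motor genes per class stands above. In the longest class 81.1% of motor genes and 71.6% of all genes were listed in library 1, and 64.9% and 58.3% in library 2, and the interval of the motor genes spans the line in each class that holds any.

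Libraries 1 and 2 had 28 motor genes in common, which is 56.0% of the motor genes of library 1 and 75.7% of those of library 2. For all listed genes these shares are 41.5% and 54.9%. Of motor genes in either library 47.5% were in both, beside 31.0% of all listed genes. Over the 105 RefSeq genes, 26.7% of motor genes (95% interval 18.5 to 36.2) were in both, beside 8.25% of all genes and 22.4% of genes in the same length classes. Among the 28, 14 had more nonredundant reads in library 1, 6 had more in library 2 and 8 had equal counts, beside 42.6%, 25.9% and 31.5% of all genes in both. Of the 9 motor genes with 10 or more reads in either library Myo6 was the 1 that reached 10 in both. Of all 750 such genes 43 did (5.73%), so most genes with many reads reached 10 in a single library, motor genes or not. The other motor genes were Kif16b, Kif1b, Dnah8, Myo5c and Kif26b in library 1 and Kif2a, Kif13b and Myo10 in library 2.

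**Figure D4:**
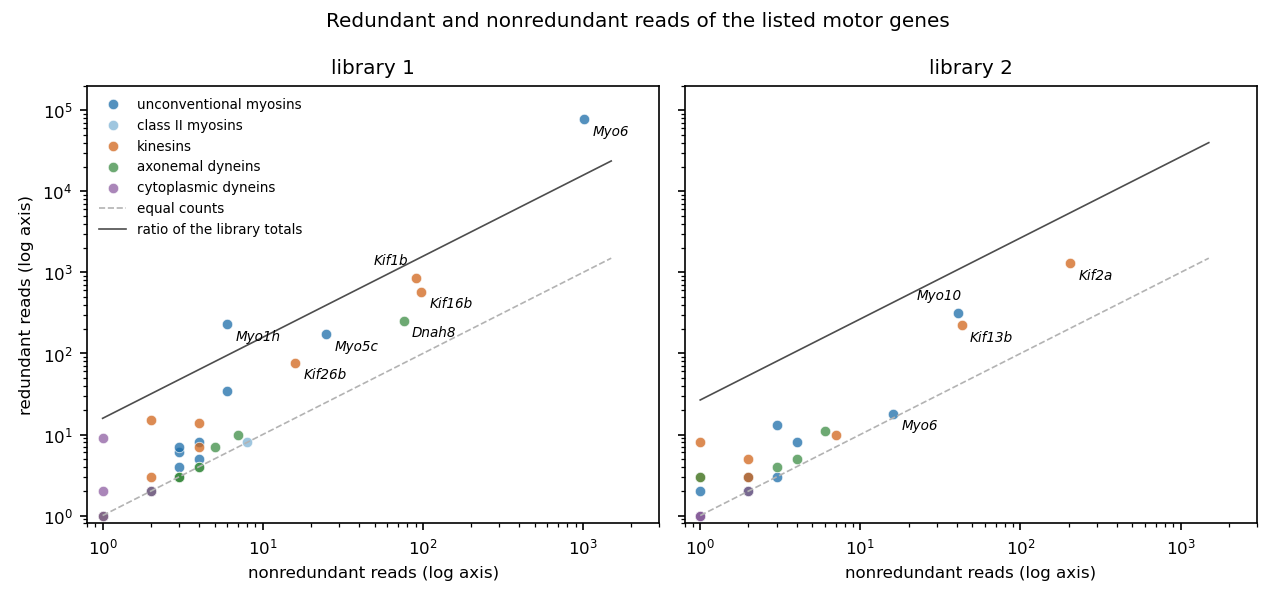
Redundant against nonredundant reads of the listed motor genes in library 1 (left) and library 2 (right), both on log axes and coloured by class; the dashed line marks equal counts and the solid line the ratio of the library totals. Myo6 lies above the solid line in library 1, with 77367 redundant reads, and next to the dashed line in library 2, with 18.

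For most motor genes both counts were close. They were equal in 29 of 50 motor genes of library 1 (58.0%, beside 56.4% of all genes) and in 20 of 37 of library 2 (54.1%, beside 56.2%). Motor genes as a whole had 55.4 redundant reads per nonredundant read in library 1, against 15.8 for the library, but 5.63 without Myo6, against 14.7 for the library without it. In library 2 the ratio was 5.35, against 26.7 for the library. The library ratios depend on the leading genes, and without the 10 genes with most reads they were 11.8 and 9.46. Among all genes with 10 or more nonredundant reads the median ratio was 4.53 in library 1 and 4.55 in library 2. The motor genes with 10 or more reads other than Myo6 lay between 3.36 for Dnah8 and 9.61 for Kif1b in library 1, and between 5.19 for Kif13b and 7.78 for Myo10 in library 2. Kif2a had 1298 redundant reads in library 2, a ratio of 6.36.

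Genes that work with the motors were taken from 7 lists of light chains, adaptors, regulators and filament subunits, with 156 genes in all. Of these 53 were listed in either library (34.0%), beside 31.7% of all genes in the same length classes. Of the 156 genes 8 had 10 or more reads in either library. Over all 21031 RefSeq genes with a curated mRNA 749 did (3.56%), a share not matched for gene length. Among 10 cargo adaptors of myosin VI 6 were listed (60.0%, beside 50.4%). Optn, an autophagy receptor that binds this motor, had 106 reads in library 1 and no entry in library 2, Dlg1 had 2 and 6, and Tom1l2 had 7 in library 1. Among 15 partners of class V and VII myosins 5 were listed (33.3%), beside 47.5% of all genes in the same length classes, the partner list that lay farthest below its background, though not tested. It was led by the hair bundle genes Cdh23 with 3 and 100 reads, Ush1c with 1 and 17, and Pcdh15 with 11 and 2.

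The shares of the other 5 lists were not tested either, and the listed share ran from 10.5% to 47.8%. Of 47 dynactin subunits, smaller dynein chains and dynein activators 15 were listed (31.9%, beside 29.4% in their length classes). Wdr60, an intermediate chain of the ciliary dynein, had 97 reads in library 2 alone, the axonemal intermediate chain gene Dnaic1 had 1 and 75, and the adaptor gene Bicdl1 had 17 in library 1 alone. Of 23 kinesin light chains and adaptors 11 were listed (47.8%, beside 43.5%), led by Grip1, which steers glutamate receptors, with 38 and 5, Mapk8ip3 with 6 in library 1 and Ppfia3 with 4 in library 1. Of 17 assembly factors of axonemal dyneins 7 were listed (41.2%, beside 29.9%), with Armc4 at 3 and 4, Lrrc6 at 4 in library 1 and Dnaaf5 at 2 in library 1. Of 26 myosin light chains, their kinases and phosphatase subunits 7 were listed (26.9%, beside 29.5%), with the phosphatase subunit Ppp1r12b at 4 and 8, Rock2 at 6 and 2 and Mylk at 2 and 2. Of 19 tubulins and cytoplasmic actins, which are short genes, 2 were listed (10.5%, beside 5.49%), Tuba1b with 6 and Tubb6 with 2 reads in library 2.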

How the data were processed

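Genomic junctions of piggyBac insertions were read in 4 samples, pooled as 2 tables. Both count columns are raw whole-number reads per gene as deposited by the authors, with no normalization. BWA, CASAVA and the build mm9 were used per the submitters' processing notes, with no versions. The sources used here give neither the rule that assigned a read to a gene nor the meaning of nonredundant. Genes were matched by transcript, symbol or synonym to RefSeq genes of GRCm38.p6 (4181 of 4184 and 3166 of 3168 matched), used for names, chromosomes, neighbours and length classes only, since the builds differ. Python 3.11.15, pandas 2.3.3 and SciPy 1.17.1 gave counts, shares and exact Clopper-Pearson 95% intervals. The share in the same length classes is the mean, over the motor genes, of the percentage of all genes in each gene's class. The counting steps were tested on simulated data. With 1 table per library, no hypothesis test was run.

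Motor genes and partner lists were chosen with earlier results of these data known, and a few list symbols that are not current RefSeq symbols, or repeat another entry, were dropped after the tables were seen. Genes were named if they had 10 or more nonredundant reads in either library or 2 or more in each, led their class (5 genes) or partner list (3 genes), or were listed spindle kinesins; a few relatives were named beside them. Protein features had been planned and were not analysed here. Not every motor gene is reported here by name.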

Additional observations from a re-analysis of the deposited data

How the results depend on the processing

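Of 35 alternative values, 19 stayed within 1.5 times the count or within the interval of the value reported and 16 did not. With a minimum of 2 nonredundant reads there were 18 motor genes in library 2 and 14 in both libraries, and with 2 redundant reads 22 and 16. With a minimum of 10 nonredundant reads there were 6 in library 1, 4 in library 2, 9 in either and 1 in both. The motor share was 9.08% of redundant reads in library 1 and 0.151% in library 2. Without the 10 leading genes it was 0.906% and 1.30%, so the order of the libraries turned. None of the 10 in library 2 was a motor gene, so there only the total changed, from 48750 to 28135. Without Myo6 the motor share was 0.774% in library 1, and without Kif2a, an alternative chosen after seeing the data, 0.336% in library 2. Motor subunits alone, protein coding genes alone and 20 length classes moved no value beyond these bounds. By reads per gene length, Myo6 and Kif2a were still first among the motor genes of libraries 1 and 2. No paired analysis was possible because each library is 1 pooled table. Counts of 1 to 3 reads limit what most motor genes show.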

Other observations

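Genes next to the motor genes were read from the RefSeq order of GRCm38.p6, which is not the authors' build. Of 118 genes next to a listed motor gene 7 had 10 or more nonredundant reads in either library (5.93%), beside 3.56% of all RefSeq genes with a curated mRNA. The share of all genes is not matched for gene length, the difference was not tested, and Myo5c, among the 7, is itself a motor gene. The 7 were named after their values were seen. Macrod2, next to Kif16b, had 123 reads in library 1, where Kif16b had 98, and 26 in library 2, where Kif16b was not listed. Smyd3, next to Kif26b, had 20 and 1, beside 16 for Kif26b in library 1. Retreg1, next to Myo10, had 1 and 22, beside 3 and 41. Myo5c, with 25 reads in library 1, is next to Myo5a, with 6. Msra, next to Kif13b, had 140 and 2, the opposite order to the 3 and 43 of Kif13b. Ubr3, next to Myo3b, had 33 and 1, beside 1 and 2, and Rab10, next to Kif3c, had 47 in library 2, where Kif3c was not listed.

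In GRCm38.p6, 10 listed motor genes overlap another gene, in 11 pairs. In 2 pairs both genes were listed in the same library. Dnah17 had 1 read in each library and Pgs1, which overlaps it, 2 and 3, and Dync2h1 had 2 in each and Dcun1d5 1 in library 2. Dimt1, which overlaps Kif2a, was not listed in either library.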
